A study of Mus musculus with 63 samples.

Results

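Chronic unpredictable mild stress (CUMS) is a schedule of varied mild stressors used to model lasting stress in rodents. The 8 libraries described here are ovaries of C57BL/6 mice labelled 2 months of age and 8 weeks of stress: 4 stressed ovaries, titled 2M-8W-Ova-CUMS 1 to 4, and 4 unstressed controls, titled 2M-8W-Ova-Ctrl 1 to 4. They were chosen by title, without use of any measured value, from the 63 libraries of the series, which are bulk RNA sequencing of 31 ovaries and of pituitaries. The other 23 ovaries form 3 sets titled 2M-12W, 6M-12W and 6M-8W, each with its own controls, and appear here for comparison. The series' design text pairs 2 months with 8 weeks and 6 months with 12 weeks, whereas the titles cross both ages with both durations; the groups follow the titles. No genotype, allele or drug is named for any group. The sources used here do not give the estrous stage, the hour of collection, the sequencing batch, whether a library is 1 animal, or whether the age is that at the start or at the end of stress. The p-values come from a fit of all 31 ovaries, so they measure the spread between libraries within all ovary groups, not these 8 alone. That spread may be technical.

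The ovary alternates between growing follicles and the corpora lutea that form from them after ovulation. Granulosa cells around the oocyte turn androgens of the theca cells into estrogen, and the surge of luteinizing hormone (LH) then triggers ovulation and the switch to progesterone production in luteal cells. Stress acts on this cycle through glucocorticoids and through the hypothalamus and pituitary. The composition of a whole ovary also changes with the stage of the estrous cycle and with how cleanly the oviduct, fat and ligaments were trimmed from it. In whole ovaries, fewer cells of a type and less RNA per cell cannot be told apart.

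Total counts were 12536371 to 21001348 in CUMS ovaries and 16762518 to 24488085 in Ctrl ovaries. Levels are CPM (counts scaled to a common library size) after TMM scaling, and a fold is log2 of CUMS over Ctrl. The marker genes fit the ovary label: all 20 granulosa, 8 theca, 14 luteal and 25 oocyte markers listed were detected and tested. CUMS ovaries 1 and 3 stood apart from the rest. Their median correlation of log2 CPM with the other 7 libraries was 0.958 and 0.973, against 0.982 to 0.985 for the other 6 libraries. Both held transcripts of the oviduct. The summed level of 34 motile cilia genes was 993, 93.3, 335 and 78.7 CPM in CUMS ovaries 1 to 4, against 71.7, 66.8, 90.5 and 64.1 CPM in Ctrl ovaries 1 to 4. The summed level of 18 genes of the secretory oviduct epithelium was 2368, 125, 305 and 107 CPM in CUMS ovaries, against 91.7, 95.6, 123 and 49.4 CPM in Ctrl ovaries. CUMS ovary 1 was highest in both lists and CUMS ovary 3 was second, while CUMS ovaries 2 and 4 lay near the controls. Over the 23 other ovaries the cilia list ranged from 62.4 to 313 CPM and the secretory list from 85.8 to 494 CPM. Folds below are from all 4 CUMS ovaries unless they are said to be without CUMS ovaries 1 and 3.

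Other marker lists were uneven as well. Transcripts of 7 pituitary hormones summed to 56.5, 69.3, 78.7 and 42.8 CPM in CUMS ovaries 1 to 4, against 1.61, 2.31, 1.09 and 43.3 CPM in Ctrl ovaries 1 to 4. Ctrl ovaries 1 to 3 were thus low, below all 23 other ovaries (38.4 to 1523 CPM), and Ctrl ovary 4 lay with the CUMS ovaries. Adipocyte transcripts summed to 467, 282, 160.4 and 296 CPM in CUMS ovaries and 764, 259, 247 and 771 CPM in Ctrl ovaries, highest in Ctrl ovaries 1 and 4. In those controls the sum was mostly Plin4, a lipid droplet protein gene, with 60.9, 84.8, 13.5 and 131 CPM in CUMS ovaries and 606, 96.1, 66.4 and 616 CPM in Ctrl ovaries. Of the 11 adipocyte genes tested 9 had folds above 0, with a median of 1.18 and of -0.35 without CUMS ovaries 1 and 3; Adipoq, the adiponectin gene, stood at 16.5, 1.28, 0.721 and 0.290 CPM in CUMS ovaries and 0.965, 0.916, 2.97 and 0.927 CPM in Ctrl ovaries, so CUMS ovary 1 was the high one. Neutrophil transcripts stood at 153 CPM in CUMS ovary 1 and at 2.03 to 11.6 CPM in the other 3 CUMS ovaries, against 6.49 to 9.99 CPM in Ctrl ovaries. The value of CUMS ovary 1 was nearly all Ltf, the lactoferrin gene (147 CPM there), and 4 of 6 neutrophil genes tested had folds below 0. Mitochondrially encoded transcripts made up 3.86% to 7.11% of counts in CUMS ovaries and 5.11% to 5.77% in Ctrl ovaries. The part of these differences in the results was not tested, except by leaving libraries out.

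**Figure D1:**
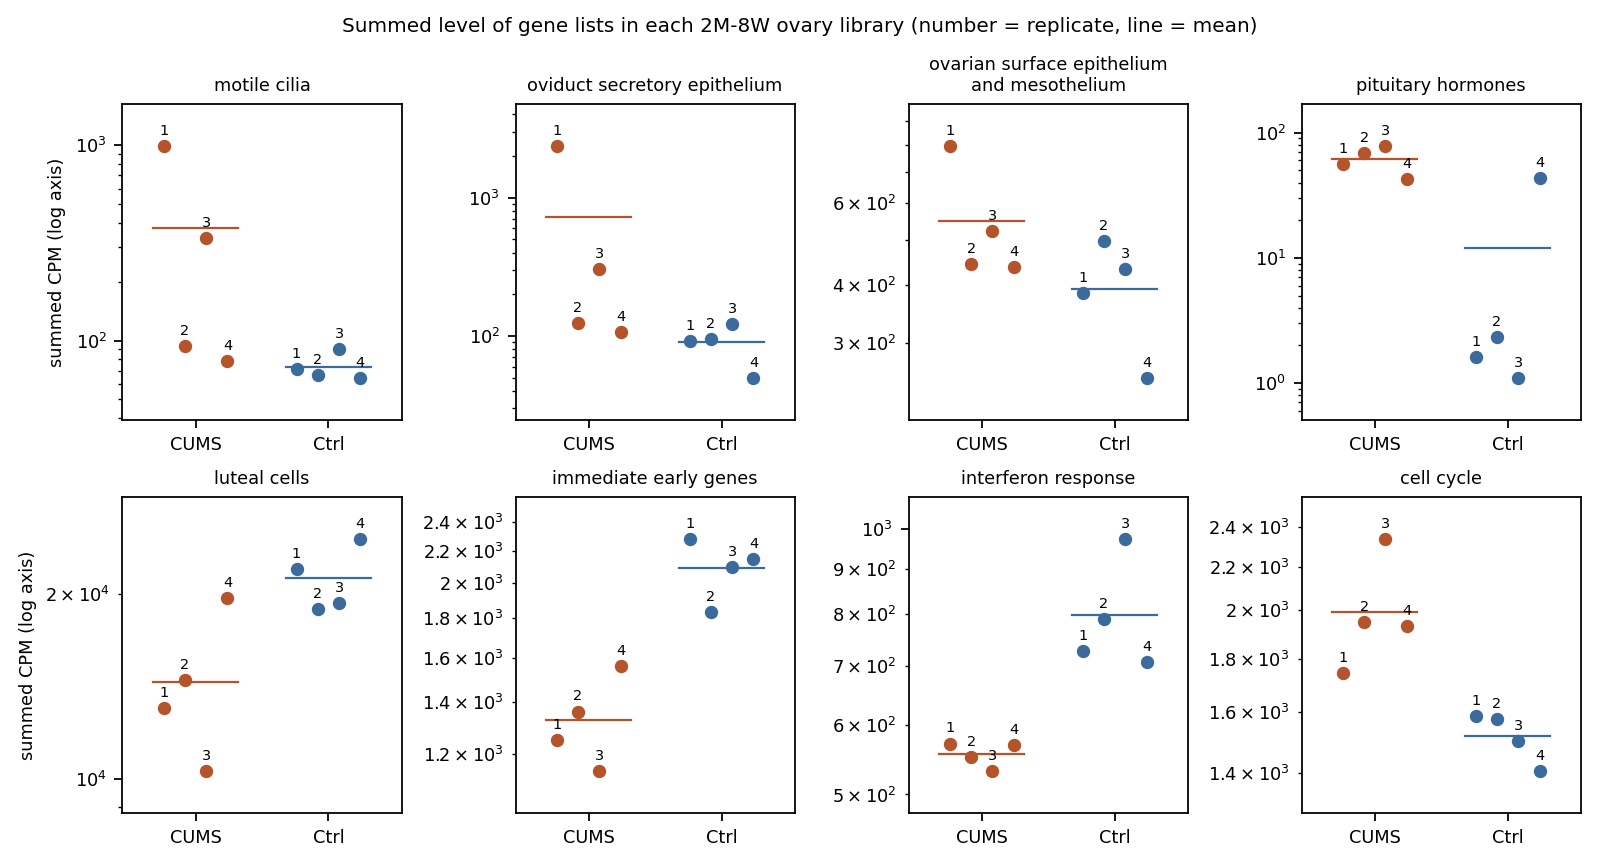
Summed level (CPM, log axis) of 8 gene lists in each 2M-8W ovary, CUMS left of Ctrl; numbers are replicates and lines are means. CUMS ovaries 1 and 3 carry the cilia and oviduct transcripts, whereas immediate early and interferon genes are lower, and cell cycle genes higher, in each of the 4 CUMS ovaries than in any control.

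Of 17766 genes tested, 1113 (6.26%) passed the test, edgeR's quasi-likelihood F test at a Benjamini-Hochberg adjusted p under 0.05. Of these, 703 genes (3.96%) were higher and 410 (2.31%) were lower in CUMS ovaries. The median fold over all genes tested was -0.00. An unadjusted p under 0.05 was reached by 4191 genes (23.6%), the share against which such counts in the lists below are read. The directions differed in how the libraries contributed. Of the 703 higher genes, CUMS ovary 1 lay above every control in 678 and CUMS ovary 3 in 689, whereas CUMS ovary 2 did so in 468 and CUMS ovary 4 in 378. CUMS ovary 1 was the highest library in 462 of them and CUMS ovary 3 in 216. Of the 410 lower genes, CUMS ovaries 1 to 4 lay below every control in 388, 344, 395 and 321. All 4 CUMS ovaries lay above all controls in 291 of the higher genes and below all controls in 270 of the lower ones, which is 41.4% and 65.9% of them. Over all genes tested the shares with such separate groups were 4.01% above and 4.23% below.

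Without CUMS ovaries 1 and 3 the folds of the higher genes shrank and those of the lower genes largely stayed. The median fold of the higher genes was 1.17 with all libraries and 0.35 without CUMS ovaries 1 and 3. Of the 694 higher genes that could be fitted both ways, 91 changed sign. The median fold of the lower genes was -0.65 with all libraries and -0.54 without them, and 0 of 410 changed sign. With only CUMS ovaries 2 and 4 set against the 4 controls, 0 genes passed the edgeR test, although 1798 had an unadjusted p under 0.05. Of the genes called with all libraries, 270 of the 694 higher and 339 of the 410 lower ones had such an unadjusted p. These genes were chosen with CUMS ovaries 2 and 4 and the same controls in the fit. Kept signs and low unadjusted p-values thus follow partly from that choice.

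**Figure D2:**
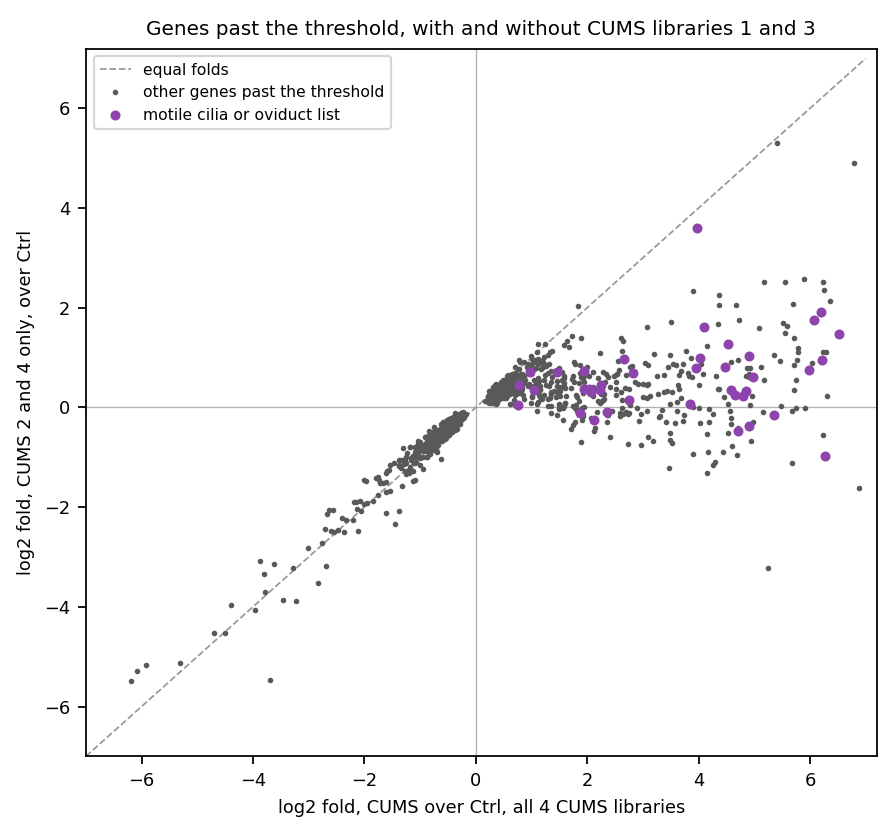
Log2 fold of each gene past the threshold with all 4 CUMS libraries (horizontal) and with CUMS ovaries 2 and 4 only (vertical); the dashed line marks equal folds. Lower genes lie along the line, while many higher genes, and the cilia and oviduct genes in purple with few exceptions, lie far below it; 6 genes lie outside the axes and 9 were not tested without ovaries 1 and 3.

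Among the largest decreases were those of Abcb1b, Timp1, Atp12a and Lrrn1, whose 4 CUMS ovaries all lay below all controls. Abcb1b, a multidrug efflux pump, had 85.0, 109, 40.8 and 208 CPM in CUMS ovaries 1 to 4, against 457, 777, 577 and 807 CPM in Ctrl ovaries 1 to 4. Every CUMS ovary lay below every control, with CUMS ovary 3 lowest and CUMS ovary 4 nearest to the controls. The fold of Abcb1b was -2.56 ± 0.50 (SE; adjusted p = 0.0128), -2.06 without CUMS ovaries 1 and 3, and it passed in 12 of 15 alternative fits. The gene (ENSMUSG00000028970) lies at chr5:8798147-8866315 of GRCm38, plus strand; its paralog Abcb1a is close in sequence, so the counting could split reads between them.

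Timp1 encodes a secreted inhibitor of the metalloproteases that remodel the follicle wall and the young corpus luteum. It had 22.0, 21.2, 17.1 and 39.2 CPM in CUMS ovaries 1 to 4, against 166, 129, 42.1 and 108 CPM in Ctrl ovaries 1 to 4. The groups did not overlap, although Ctrl ovary 3 came close to CUMS ovary 4. The fold of Timp1 was -2.15 ± 0.40 (adjusted p = 0.00939, past the threshold in 12 of 15 alternatives) and -1.89 without CUMS ovaries 1 and 3; the gene lies at chrX:20870166-20874735, plus strand. Atp12a, a subunit of the non-gastric hydrogen-potassium pump, had 0.696, 1.17, 0.320 and 1.498 CPM in CUMS ovaries, against 9.01, 13.8, 13.4 and 11.2 CPM in Ctrl ovaries. Its 4 controls were close together and the CUMS ovaries far below them, for a fold of -3.62 ± 0.63 (adjusted p = 0.00606). Lrrn1, a leucine-rich repeat membrane protein, had 44.0, 33.2, 33.5 and 49.6 CPM in CUMS ovaries and 426, 105, 105 and 297 CPM in Ctrl ovaries, a fold of -2.54 ± 0.58 (adjusted p = 0.0178). Ctrl ovaries 1 and 4 were the high ones for Lrrn1.

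Further genes with large decreases had 1 or 2 controls far above the others. Adcyap1, which encodes the neuropeptide PACAP that is induced in granulosa cells before ovulation, had 0.232, 0.639, 0.400 and 0.773 CPM in CUMS ovaries, against 2.20, 19.2, 3.27 and 19.7 CPM in Ctrl ovaries. The CUMS ovaries were all below the controls, but Ctrl ovaries 2 and 4 were several times above Ctrl ovaries 1 and 3. The fold of Adcyap1 was -4.39 ± 1.01 (adjusted p = 0.0178). Ctrl ovary 2 was the highest library for the steroid 11-beta-hydroxylase gene Cyp11b1 (17.5 CPM, against 0.482, 0.424 and 2.78 CPM in Ctrl ovaries 1, 3 and 4), for Ptprn, Wnt10a, Cd244 and Xpnpep2. Their folds were -4.69, -3.01, -2.64, -2.60 and -2.84. The carboxylesterase gene Ces2a had 0, 0.213, 0 and 0.290 CPM in CUMS ovaries and 17.2, 1.25, 2.66 and 18.8 CPM in Ctrl ovaries, with Ctrl ovaries 1 and 4 high, and the organic anion transporter gene Slco1a5 had its highest values in the same controls. Cyp11b1, Ces2a and Slco1a5 belong to families with close copies, so their counts are less certain. Pik3c2g, a lipid kinase subunit gene, had 0.696, 0.373, 0.400 and 2.42 CPM in CUMS ovaries and 9.76, 15.8, 14.8 and 17.0 CPM in Ctrl ovaries, with all 4 controls high; the fold was -3.79 ± 1.09 (adjusted p = 0.0393).

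**Figure D3:**
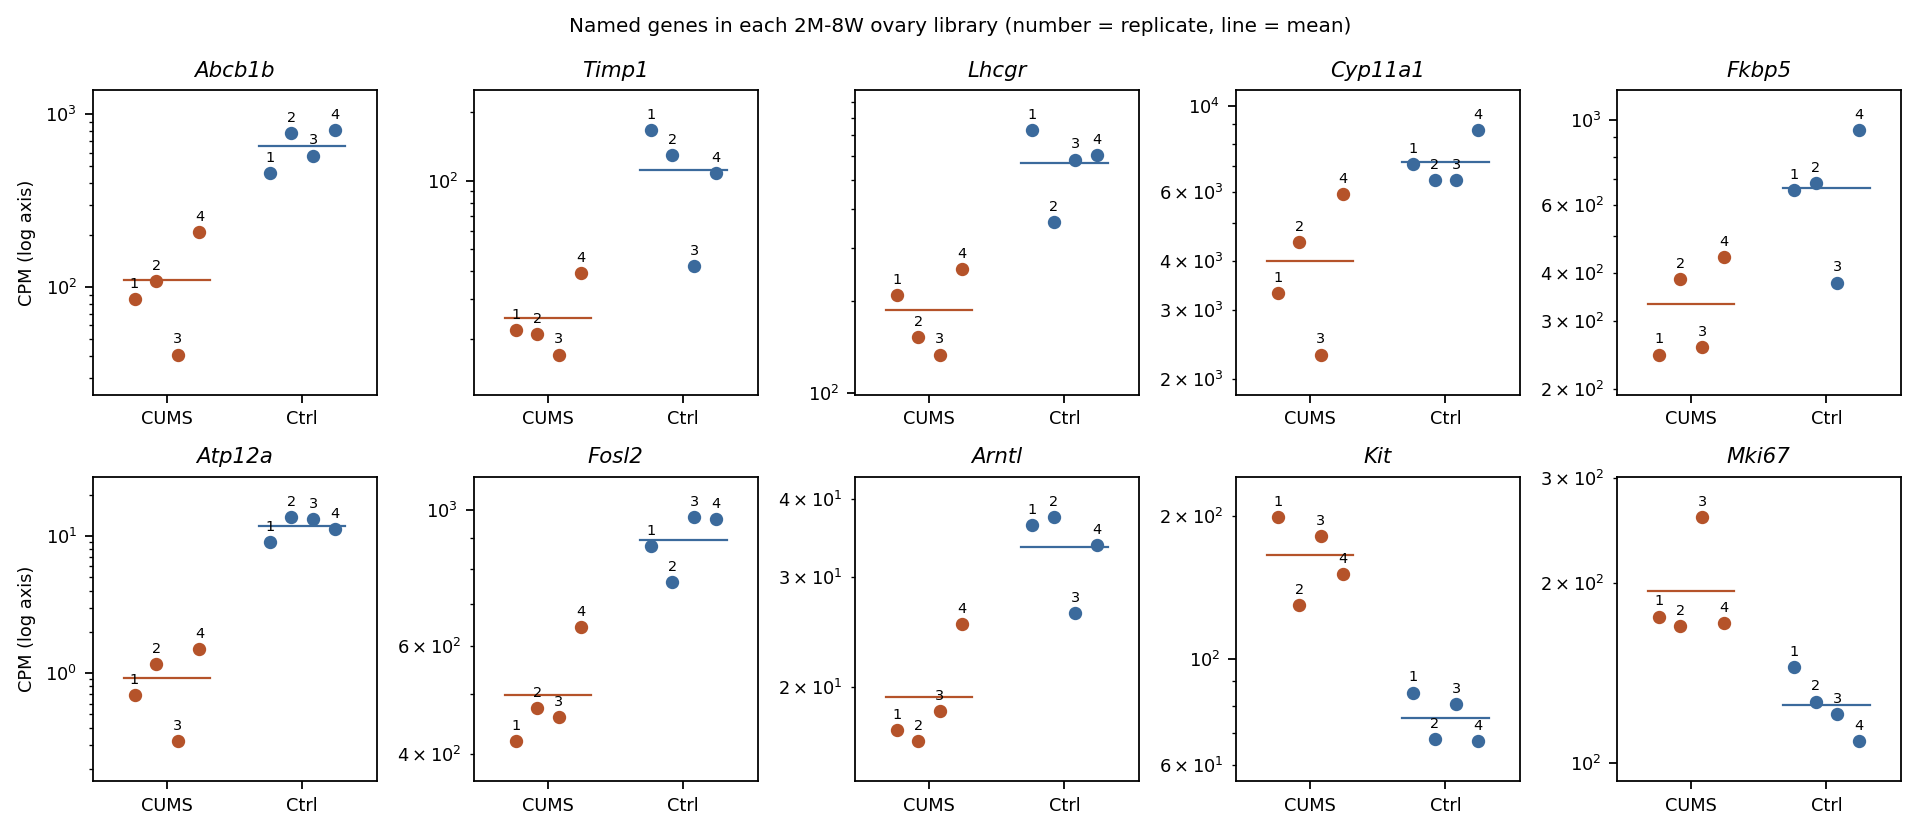
CPM (log axis) of 10 named genes in each 2M-8W ovary, CUMS left of Ctrl; numbers are replicates and lines are means. The groups are separate for 9 of the genes; for Fkbp5, Ctrl ovary 3 lies below CUMS ovaries 2 and 4.

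Several luteal transcripts fell. Of 14 luteal markers 4 fell and 1 rose, against 2.31% lower and 3.96% higher among all genes, and the median fold was -0.58, or -0.27 without CUMS ovaries 1 and 3. Lhcgr, the receptor for LH, had 209, 153, 134 and 254 CPM in CUMS ovaries 1 to 4, against 727, 364, 584 and 605 CPM in Ctrl ovaries 1 to 4. The groups did not overlap, and Ctrl ovary 2 was the lowest control. The fold of Lhcgr was -1.60 ± 0.38 (adjusted p = 0.0195) and -1.49 without CUMS ovaries 1 and 3; the gene lies at chr17:88741549-88791976, minus strand. Cyp11a1, which makes the first step from cholesterol to steroids, had 3316, 4469, 2305 and 5935 CPM in CUMS ovaries and 7109.8, 6447, 6467 and 8648 CPM in Ctrl ovaries. CUMS ovary 4 lay just under the lowest control and CUMS ovary 3 was lowest. The fold of Cyp11a1 was -0.84 ± 0.23 (adjusted p = 0.0316) and -0.47 without CUMS ovaries 1 and 3. Fdxr, part of the electron supply of that enzyme, fell as well (-0.57 ± 0.17, adjusted p = 0.0420, and -0.33 without CUMS ovaries 1 and 3). Prlr, the prolactin receptor gene, fell too (-0.89 ± 0.27, adjusted p = 0.0472; -0.78 without those ovaries).

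The riser of the luteal list was Cyp2f2, with 25.1, 1.70, 3.36 and 0.773 CPM in CUMS ovaries and 0.590, 0.530, 1.27 and 0.463 CPM in Ctrl ovaries. Its high value came from CUMS ovary 1, and without CUMS ovaries 1 and 3 its fold was 0.81 instead of 3.45. The summed luteal level was 13036, 14499, 10288 and 19678 CPM in CUMS ovaries and 21975, 18899, 19324 and 24580.0 CPM in Ctrl ovaries; CUMS ovary 4 overlapped with the controls. On the list of steroid hormone synthesis, 2 of 20 genes fell, Cyp11a1 and Fdxr, and 0 rose, against 2.31% lower and 3.96% higher among all genes. Star, the cholesterol carrier of the mitochondrion, had 351, 458, 185 and 485 CPM in CUMS ovaries and 639, 773, 372 and 1010.2 CPM in Ctrl ovaries (fold -0.92 ± 0.57, adjusted p = 0.340), and Hsd3b1 had a fold of -0.31 ± 0.13 with all 4 CUMS ovaries below all controls (adjusted p = 0.139). Akr1c18, which inactivates progesterone, spread over 4.32 to 1308 CPM in CUMS ovaries and 11.7 to 578 CPM in Ctrl ovaries, so that its fold of 1.04 ± 1.06 is within the spread of both groups (adjusted p = 0.588). The 22 genes of sterol synthesis and uptake included 0 past the edgeR threshold (1 at an unadjusted p under 0.05), with 20 folds below 0 and a median of -0.33.

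Granulosa transcripts did not separate the groups. Of 20 granulosa markers 0 passed in edgeR, and 6 had an unadjusted p under 0.05, against 23.6% of all genes. Of their folds 17 lay above 0 and the median was 0.27. The control ovaries themselves differed. Inhba, a subunit of activin and inhibin, had 324, 297, 394 and 286 CPM in CUMS ovaries and 315, 109, 559.9 and 105 CPM in Ctrl ovaries. Ctrl ovaries 2 and 4 were low and Ctrl ovary 3 was the highest of the 8, so the CUMS ovaries lay inside the range of the controls. The same controls were low for Fshr, the receptor for follicle-stimulating hormone (46.5, 57.0, 43.5 and 56.5 CPM in CUMS ovaries and 44.0, 26.6, 69.4 and 21.3 CPM in Ctrl ovaries), for Cyp19a1, the aromatase gene (109, 59.9, 69.3 and 124 CPM in CUMS ovaries and 127, 50.7, 298 and 48.4 CPM in Ctrl ovaries), and for Inha. Adjusted p in edgeR was 0.741 for Inhba, 0.561 for Fshr, 0.582 for Cyp19a1 and 0.543 for Inha. Amh (0.14 ± 0.25), Fst (0.27 ± 0.28) and the granulosa transcription factor gene Foxl2 (-0.17 ± 0.11) did not pass either. Esr2, the estrogen receptor of granulosa cells, had 126, 196, 231 and 123 CPM in CUMS ovaries and 136, 89.6, 104 and 81.5 CPM in Ctrl ovaries, with all 4 CUMS ovaries above the control mean and an adjusted p of 0.0718. Of the other receptors, Esr1 had 151 CPM in CUMS ovary 1 and 56.3 to 74.5 CPM in the other 3 CUMS ovaries, against 47.8 to 75.8 CPM in Ctrl ovaries (adjusted p = 0.162).

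Of 8 theca markers 2 rose and 0 fell, against 3.96% higher and 2.31% lower among all genes. Both belong to the hedgehog pathway, by which granulosa cells signal to theca cells. Hhip, a hedgehog-binding protein and pathway target, had 14.5, 20.5, 23.5 and 17.1 CPM in CUMS ovaries and 13.5, 8.82, 11.1 and 10.6 CPM in Ctrl ovaries. The groups did not overlap, and the fold of 0.78 ± 0.22 (adjusted p = 0.0372) was 0.77 without CUMS ovaries 1 and 3. Ptch1, the hedgehog receptor and another target, had 219, 222, 281 and 228 CPM in CUMS ovaries and 218, 142, 133 and 181 CPM in Ctrl ovaries, and Ctrl ovary 1 lay just under the lowest CUMS ovary (fold 0.49 ± 0.14, adjusted p = 0.0348). Cyp17a1, which makes androgens, was at 829.9, 765, 584 and 943 CPM in CUMS ovaries and 720.1, 265, 633 and 213 CPM in Ctrl ovaries, with Ctrl ovaries 2 and 4 low (adjusted p = 0.527).

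Of 25 oocyte transcripts 1 rose, Kit, which is near the 3.96% of all genes. All 25 folds lay above 0, with a median of 0.25 and 0.27 without CUMS ovaries 1 and 3. Kit, the receptor on oocytes and theca cells for the granulosa-made Kit ligand, had 199, 130.2, 181 and 151 CPM in CUMS ovaries 1 to 4, against 85.2, 68.1, 80.5 and 67.5 CPM in Ctrl ovaries 1 to 4. The lowest CUMS ovary lay well above the highest control. The fold of Kit was 1.13 ± 0.26 (adjusted p = 0.0182), 0.90 without CUMS ovaries 1 and 3, and the gene lies at chr5:75574916-75656722, plus strand. Gdf9, Bmp15 and Zp3, made by the oocyte itself, had folds of 0.30 ± 0.23, 0.29 ± 0.21 and 0.28 ± 0.24 and did not pass (adjusted p in edgeR 0.461 for Gdf9 and 0.409 for Bmp15). The summed oocyte level was 805, 901, 1010.3 and 867 CPM in CUMS ovaries and 792, 771, 587 and 587 CPM in Ctrl ovaries; the groups were separate, with Ctrl ovaries 3 and 4 lowest.

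A share of the cell cycle genes rose. Of 28 listed, 10 rose and 0 fell, against 3.96% higher and 2.31% lower among all genes, and all 28 folds lay above 0. The median fold was 0.36, and 0.37 without CUMS ovaries 1 and 3. Mki67, a marker of dividing cells, had 176, 169.5, 259 and 171 CPM in CUMS ovaries and 145, 127, 121 and 109 CPM in Ctrl ovaries. CUMS ovary 3 was high, the other 3 CUMS ovaries were close together, and all lay above the controls. The fold of Mki67 was 0.63 ± 0.14 (adjusted p = 0.0175). Mcm6, part of the helicase that opens DNA for replication, rose by 0.38 ± 0.10 (adjusted p = 0.0247) and the spindle motor gene Kif11 by 0.50 ± 0.13 (adjusted p = 0.0276). The other risers were Top2a, Ccna2, Cenpf, Tpx2, Mcm2, Mcm3 and Ccne2. In 11 of the 28 genes all 4 CUMS ovaries lay above all controls, against 4.01% of all genes. Mean summed level was 1991 ± 250.1 CPM in CUMS ovaries and 1518 ± 83.7 CPM in Ctrl ovaries (SD, n = 4 each).

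Immediate early genes, which switch on within minutes of a stimulus and also rise during dissection of tissue, lay lower. Of 27 listed 3 fell and 0 rose, against 2.31% lower and 3.96% higher among all genes, and 25 folds were below 0 with a median of -0.59, or -0.49 without CUMS ovaries 1 and 3. Fosl2, a partner of the Jun proteins, had 419, 475, 458 and 643 CPM in CUMS ovaries 1 to 4, against 873, 761, 973 and 963 CPM in Ctrl ovaries 1 to 4. Every CUMS ovary lay below every control, CUMS ovary 4 nearest. The fold of Fosl2 was -0.84 ± 0.17 (adjusted p = 0.0152). Jund had 208, 219, 174 and 215 CPM in CUMS ovaries and 274, 268, 274 and 261 CPM in Ctrl ovaries, a small but separate difference (fold -0.40 ± 0.08, adjusted p = 0.0152, 12 of 15 alternatives). Ier2 fell by the same size as Fosl2 (-0.84 ± 0.23, adjusted p = 0.0322). The list summed to 1251, 1362, 1139 and 1561 CPM in CUMS ovaries and 2279.7, 1835, 2096 and 2148 CPM in Ctrl ovaries, with no overlap; the labels give no dissection time.

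Genes of the LH surge and of the glucocorticoid response held decreases too. Of 22 tested genes on the list of the surge and ovulation, Timp1 and Cebpb fell, against 2.31% of all genes, and Pgr rose, near the 3.96% of all genes; 17 folds lay below 0, with a median of -0.59. Cebpb, a transcription factor that granulosa cells need to luteinize, had 83.8, 129.9, 93.1 and 114 CPM in CUMS ovaries and 143, 168, 187 and 148 CPM in Ctrl ovaries, without overlap (fold -0.61 ± 0.16, adjusted p = 0.0234; -0.41 without CUMS ovaries 1 and 3). Pgr, the progesterone receptor, had 29.7, 3.46, 6.16 and 3.14 CPM in CUMS ovaries and 2.14, 1.01, 4.24 and 2.57 CPM in Ctrl ovaries. Its fold of 2.10 ± 0.50 rested on CUMS ovary 1, and was 0.41 without CUMS ovaries 1 and 3; the oviduct expresses Pgr as well. Of 24 glucocorticoid-responsive genes 5 fell, Fkbp5, Cdkn1a, Klf9, Angptl4 and Cebpb, and 0 rose, against 2.31% lower and 3.96% higher among all genes. The list's median fold was -0.28, and -0.20 without CUMS ovaries 1 and 3. Fkbp5, a co-chaperone of the glucocorticoid receptor that the receptor itself induces, had 246, 387, 257 and 439 CPM in CUMS ovaries and 656, 684, 378 and 937 CPM in Ctrl ovaries. Ctrl ovary 3 lay among the CUMS ovaries. The fold of Fkbp5 was -0.998 ± 0.29 (adjusted p = 0.0400) and -0.69 without CUMS ovaries 1 and 3. Angptl4, an inhibitor of lipoprotein lipase, had a fold of -0.58 ± 0.17 (adjusted p = 0.0406). Cdkn1a, the cell cycle inhibitor p21, had 24.4, 14.5, 11.05 and 28.9 CPM in CUMS ovaries and 54.6, 62.7, 23.7 and 59.9 CPM in Ctrl ovaries, with Ctrl ovary 3 again among the CUMS ovaries (fold -1.34 ± 0.40, adjusted p = 0.0467). Nr3c1, the glucocorticoid receptor gene, did not pass (0.13 ± 0.23, adjusted p = 0.777).

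Clock genes changed in both directions: Arntl, an activator, fell, and the outputs Hlf and Tef rose. The clock is a loop in which BMAL1, encoded by Arntl, and its partners CLOCK and NPAS2 bind E-boxes and switch on their own repressors and output factors. Of 7 activators and their regulators 3 fell, Arntl, Npas2 and Rora, against 2.31% of all genes. Arntl had 17.0, 16.4, 18.3 and 25.2 CPM in CUMS ovaries 1 to 4, against 36.4, 37.5, 26.3 and 33.8 CPM in Ctrl ovaries 1 to 4. The groups were separate but close, between CUMS ovary 4 and Ctrl ovary 3. The fold of Arntl was -0.80 ± 0.15 (adjusted p = 0.0110, 12 of 15 alternatives) and -0.69 without CUMS ovaries 1 and 3; the gene lies at chr7:113207465-113314122, plus strand. Npas2 had a fold of -1.17 ± 0.30 (adjusted p = 0.0234). Of 14 repressors and outputs 3 rose, Hlf, Tef and Cry1, against 3.96% of all genes. Hlf, an output factor of the PAR bZIP family, had 18.7, 22.4, 26.8 and 16.8 CPM in CUMS ovaries and 10.02, 10.1, 10.2 and 14.3 CPM in Ctrl ovaries, without overlap (fold 0.92 ± 0.20, adjusted p = 0.0175). Tef, of the same family, had 150.0, 162, 138 and 149 CPM in CUMS ovaries and 111, 98.1, 109 and 119 CPM in Ctrl ovaries, a fold of 0.45 ± 0.13 (adjusted p = 0.0391) and 0.50 without CUMS ovaries 1 and 3. Cry1, a repressor, rose by 0.39 ± 0.12 (adjusted p = 0.0469), and CUMS ovary 1 lay just under Ctrl ovaries 1 and 3.

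The promoters of these output genes are shown because clock factors are known to act through short motifs in such windows. The 250 bases before the start in RefSeq (GRCm38.p6, read 5′ to 3′ on the gene's strand) were searched on both strands for the E-box CACGTG and for the cAMP response element TGACGTCA, which can share only their end letters; matches are in capitals. The Tef window is the first of 2 listed starts, chr15:81802423-81802672, plus strand, and holds an E-box; the Hlf window is chr11:90390918-90391167, minus strand, and holds a cAMP response element near its end.
Tef: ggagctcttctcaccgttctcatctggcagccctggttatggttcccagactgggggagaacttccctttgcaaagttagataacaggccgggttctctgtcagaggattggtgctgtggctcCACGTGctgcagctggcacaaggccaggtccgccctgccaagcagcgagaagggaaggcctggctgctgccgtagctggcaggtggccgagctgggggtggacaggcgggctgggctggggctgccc
Hlf: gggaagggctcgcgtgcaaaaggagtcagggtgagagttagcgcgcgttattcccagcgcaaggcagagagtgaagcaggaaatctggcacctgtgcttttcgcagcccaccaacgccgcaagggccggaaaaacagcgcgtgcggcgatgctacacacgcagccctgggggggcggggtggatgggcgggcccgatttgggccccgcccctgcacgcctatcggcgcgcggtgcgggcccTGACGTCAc
An E-box was found in 5 of 12 repressor and output genes with a window (Bhlhe41, Ciart, Cry1, Per1 and Tef), in 0 of 6 activator genes and in 6.86% of 27025 genes with a window. Among genes past the threshold the share was 8.45% for higher and 8.42% for lower genes. A cAMP response element was found in 3 of 21 immediate early genes and in 1.77% of all windows. A match describes the letters of the window and is not evidence of binding.

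Matrix, vessel and macrophage transcripts had folds mostly below 0. Of 24 matrix genes 3 fell and 0 rose, against 2.31% lower and 3.96% higher among all genes. They were Sparc, Col5a1 and Col4a2 (folds -0.69 ± 0.17, -0.42 ± 0.13 and -0.45 ± 0.14; adjusted p 0.0221, 0.0485 and 0.0495). Sparc, a matrix-binding glycoprotein, had 956, 950.4, 761 and 1100.0 CPM in CUMS ovaries and 1488, 1938, 1091 and 1578 CPM in Ctrl ovaries. CUMS ovary 4 and Ctrl ovary 3 overlapped. All 12 endothelial folds lay below 0 (median -0.29, and -0.29 without CUMS ovaries 1 and 3), and Pecam1 and Egfl7 fell, against 2.31% of all genes. Pecam1, the junction protein of endothelial cells, had 64.9, 56.0, 50.8 and 66.4 CPM in CUMS ovaries and 105, 83.3, 78.1 and 95.8 CPM in Ctrl ovaries, without overlap (fold -0.60 ± 0.15, adjusted p = 0.0213). Of the macrophage markers Mrc1 fell (-0.44 ± 0.13, adjusted p = 0.0472), 1 of 14 tested against 2.31% of all genes; the median of the list was -0.29, and -0.09 without CUMS ovaries 1 and 3. S100a9 and Prf1 fell at levels near the detection limit, at most 0.160 CPM and 0.242 CPM in CUMS ovaries.

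Interferon-induced genes lay lower without a single call. Of 22 tested 0 passed in edgeR, and 5 had an unadjusted p under 0.05, near the 23.6% of all genes. Yet all 22 folds lay below 0, with a median of -0.71 and -0.87 without CUMS ovaries 1 and 3. In 11 of the 22 all 4 CUMS ovaries lay below all controls, against 4.23% of all genes. Their summed level was 571, 551, 531 and 569 CPM in CUMS ovaries and 727, 791, 974 and 707 CPM in Ctrl ovaries, so that the groups did not overlap and Ctrl ovary 3 was highest. In the other sets the median fold of the list was 1.01 for 2M-12W, -0.18 for 6M-12W and 1.54 for 6M-8W.

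Of 18 antioxidant and detoxification genes 2 fell and 0 rose, against 2.31% lower and 3.96% higher among all genes. Both are known targets of NRF2, the factor that answers oxidative stress. Hmox1, heme oxygenase 1, had 63.1, 65.1, 58.3 and 72.0 CPM in CUMS ovaries and 104, 113, 101 and 181 CPM in Ctrl ovaries; the CUMS ovaries were close together below all controls (fold -0.95 ± 0.19, adjusted p = 0.0151, 11 of 15 alternatives). Srxn1, sulfiredoxin, had 30.5, 31.9, 18.7 and 36.6 CPM in CUMS ovaries and 67.4, 56.1, 43.6 and 81.8 CPM in Ctrl ovaries, also without overlap (fold -1.08 ± 0.23, adjusted p = 0.0162). Of 18 apoptosis genes Bbc3 (-0.61 ± 0.17) and Cdkn1a fell, against 2.31% of all genes. Of 20 genes of the unfolded protein response Dnajb9 rose (0.44 ± 0.12) and Atf4 fell (-0.33 ± 0.09; -0.18 without CUMS ovaries 1 and 3), which is near the shares of all genes, 3.96% higher and 2.31% lower, while of 14 heat shock genes 0 passed in edgeR (1 at an unadjusted p under 0.05; median 0.05).

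The largest increases were in motile cilia genes and belonged to CUMS ovaries 1 and 3. Motile cilia beat on the multiciliated cells of the oviduct; the ovary proper has few such cells. Of 33 tested cilia genes 31 rose, against 3.96% of all genes, and the median fold was 4.03, or 0.37 without CUMS ovaries 1 and 3. Hydin, a protein of the central pair of the axoneme, had 52.8, 0.586, 14.1 and 0.290 CPM in CUMS ovaries 1 to 4, against 0.214, 0.145, 0.545 and 0.0421 CPM in Ctrl ovaries 1 to 4. CUMS ovaries 1 and 3 were high and the other 6 libraries were below 1 CPM. The fold of Hydin was 6.22 ± 1.23 (adjusted p = 0.0147) and 0.95 without CUMS ovaries 1 and 3. Dnah5, a dynein heavy chain of the outer arm, had 84.5, 1.44, 31.2 and 0.145 CPM in CUMS ovaries and 0.268, 0.0482, 1.70 and 0 CPM in Ctrl ovaries. Ctrl ovary 3 lay above CUMS ovary 2 for Dnah5, whose fold was 5.98 and 0.74 without CUMS ovaries 1 and 3. Ccdc39, which sets the repeat length of the axoneme, had 32.8, 4.58, 14.7 and 4.93 CPM in CUMS ovaries and 3.81, 2.99, 4.54 and 3.41 CPM in Ctrl ovaries, where all 4 CUMS ovaries lay above the controls, though ovaries 2 and 4 by little; its fold was 1.95 and 0.37 without CUMS ovaries 1 and 3.

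The same order of libraries held in other genes with large increases. Cfap52, Sec14l3, Cdhr3, Ccdc78, Atp13a5, Alox12e, Sntn, Spag17 and Dnah5 had folds of 5.98 to 6.51, with CUMS ovary 1 highest and CUMS ovary 3 second in each. Without those ovaries their folds were -0.98 to 2.36. Among genes whose groups were separate, the 10 largest increases were in Dnaaf1, Bbox1, Tekt1, Enkur, Iqcg, Efcab1, Cfap70, Ccdc39, Cldn3 and Iqca, with folds of 1.92 to 3.98, and of 0.37 to 2.35 without CUMS ovaries 1 and 3. Bbox1, the last enzyme of carnitine synthesis, kept the largest of these folds without CUMS ovaries 1 and 3: it had 10.2, 1.39, 3.04 and 1.30 CPM in CUMS ovaries and 0.161, 0.289, 0.545 and 0.0843 CPM in Ctrl ovaries, and its fold was 3.91 with all libraries and 2.35 without them. Of 16 tested genes of the secretory oviduct epithelium 9 rose, against 3.96% of all genes, with a median fold of 2.05 and 0.23 without CUMS ovaries 1 and 3. Epcam, an epithelial adhesion protein, had 64.7, 22.2, 32.5 and 19.6 CPM in CUMS ovaries and 14.0, 11.9, 20.2 and 4.89 CPM in Ctrl ovaries (fold 1.46 ± 0.32, adjusted p = 0.0172; 0.72 without CUMS ovaries 1 and 3). Cdh1, E-cadherin, had 103, 10.1, 26.2 and 10.4 CPM in CUMS ovaries and 12.5, 5.21, 9.87 and 4.51 CPM in Ctrl ovaries (fold 2.23 ± 0.53; 0.35 without CUMS ovaries 1 and 3); CUMS ovaries 2 and 4 lay below Ctrl ovary 1. Ctrl ovary 4 was the lowest library for both.

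Markers of the ovarian surface epithelium and mesothelium followed a less steep pattern. Of 14 tested 7 rose, against 3.96% of all genes, with a median fold of 0.84 and 0.45 without CUMS ovaries 1 and 3. The summed level was 796, 443, 523 and 436 CPM in CUMS ovaries and 384, 496, 433 and 252 CPM in Ctrl ovaries. CUMS ovaries 2 and 4 lay below Ctrl ovary 2, and Ctrl ovary 4 lay below all 23 other ovaries (337 to 756 CPM). Upk3b, a mesothelial membrane protein, had 63.2, 54.5, 54.4 and 43.3 CPM in CUMS ovaries and 32.6, 23.8, 38.2 and 12.2 CPM in Ctrl ovaries. Its 4 CUMS ovaries lay above all controls and Ctrl ovary 4 was lowest (fold 1.02 ± 0.25, adjusted p = 0.0221; 0.87 without CUMS ovaries 1 and 3). Bnc1, a transcription factor of that epithelium, rose by 0.81 ± 0.21 (adjusted p = 0.0256). Krt18, a keratin shared with the oviduct, had 112 CPM in CUMS ovary 1 and 26.5 to 34.7 CPM in CUMS ovaries 2 to 4, against 22.5, 22.7, 26.0 and 10.7 CPM in Ctrl ovaries (fold 1.31 ± 0.34, adjusted p = 0.0256; 0.43 without CUMS ovaries 1 and 3).

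The promoters of a pair of the cilia genes are shown because RFX factors, regulators of cilia genes, bind a palindromic motif of which GTTGCCA is an arm. The arm was searched on both strands in the same windows and is in capitals, as its reverse complement in Hydin. The Hydin window is chr8:110266727-110266976 and the Sntn window is chr14:13670626-13670875, both on the plus strand; Sntn encodes sentan, a protein at the tips of motile cilia.
Hydin: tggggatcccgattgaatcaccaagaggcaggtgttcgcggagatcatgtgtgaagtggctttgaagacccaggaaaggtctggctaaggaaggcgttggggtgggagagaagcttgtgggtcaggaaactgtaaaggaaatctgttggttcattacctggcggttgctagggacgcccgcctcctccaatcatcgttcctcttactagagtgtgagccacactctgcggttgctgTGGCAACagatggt
Sntn: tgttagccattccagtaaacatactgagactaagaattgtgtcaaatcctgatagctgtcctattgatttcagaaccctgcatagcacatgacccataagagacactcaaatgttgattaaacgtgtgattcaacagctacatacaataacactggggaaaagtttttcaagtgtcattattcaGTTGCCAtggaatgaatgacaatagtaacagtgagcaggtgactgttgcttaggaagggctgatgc
The arm was found in 9 of 31 cilia genes with a window (29.0%), Hydin, Sntn, Tekt1, Lrriq1 and Cdhr3 among them. It was found in 4.19% of all windows, in 8.06% of those of the higher genes and in 3.37% of those of the lower genes.

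The lower genes of this set were lower in other ovary sets as well, at larger shares than all genes tested. The sets share no library, though their tests share 1 estimate of the spread. Of the 410 lower genes 145 (35.4%) were also lower in 2M-12W, where 4.15% of all genes were, and they make up 19.6% of the lower genes there. In 6M-8W 27 of them (6.59%) were lower, against 0.563% of all genes, and in 6M-12W 124 (30.2%), against 6.26% of all genes. They are 27.0% of the lower genes of 6M-8W and 11.2% of those of 6M-12W. Of the 703 higher genes 41 (5.83%) were also higher in 2M-12W, against 2.58% of all genes. In 6M-8W 8 (1.14%) were higher, against 0.557%, and in 6M-12W 35 (4.98%), against 5.18%. By calls, the higher genes thus recurred at the share of all genes in 6M-12W and at about 2 times it in the other sets. By sign the sets ranked differently. Of the higher genes 67.0% had a fold above 0 in 6M-12W, against 51.3% of all genes tested. In 2M-12W the share was 45.4%, against 47.6%, and in 6M-8W 45.2%, against 48.5%.

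**Figure D4:**
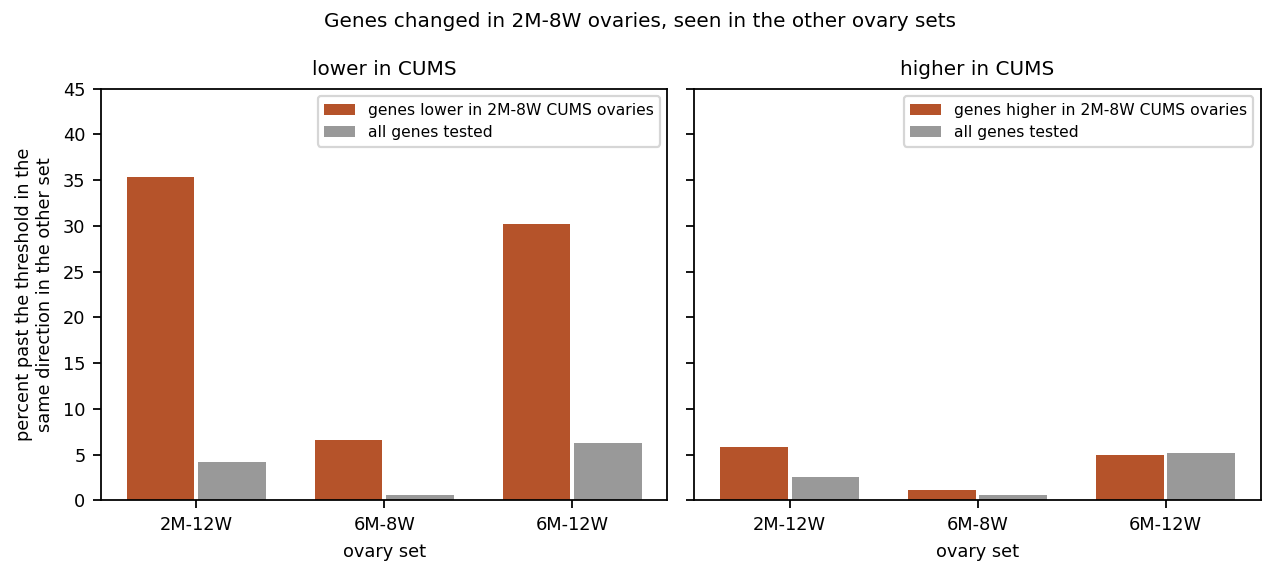
Percent of the genes lower (left) or higher (right) in 2M-8W CUMS ovaries that passed the test in the same direction in each other ovary set, beside the percent of all 17766 genes tested that did. For the lower genes the shares are 35.4%, 6.59% and 30.2%, against 4.15%, 0.563% and 6.26% of all genes.

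In all 4 sets 10 genes were lower and 0 were higher. They were Atp12a, Cpxm2, Tmem72, Wnt10a, Ugt1a6a, F13a1, Adamts14, Cacna1c, Col5a1 and 1190002F15Rik, picked out after their values were seen. Cpxm2, a carboxypeptidase-like protein, had 11.3, 7.57, 3.92 and 8.46 CPM in 2M-8W CUMS ovaries, against 21.1, 67.9, 25.7 and 60.6 CPM in Ctrl ovaries, and all 4 CUMS ovaries lay below all controls. The folds of Cpxm2 were -2.48 here, -3.25 for the 2M-12W ovaries, -2.36 for the 6M-8W ovaries and -2.38 for the 6M-12W ovaries. Those of Atp12a were -3.62, -5.64, -2.53 and -3.44 in the same order. Those of F13a1, a transglutaminase of macrophages and platelets, were -1.003, -1.33, -1.21 and -0.93. A further 62 genes, 72 in all, were lower in 2M-8W, 2M-12W and 6M-12W, among them Abcb1b, Timp1, Fkbp5, Cdkn1a, Sparc and Srxn1. The share of all genes called in several sets at once is not given here, so these counts have no base beside them. The 6M-8W set had only 99 higher and 100 lower genes, which limits the counts for all 4 sets. Abcb1b had folds of -2.89 in 2M-12W and -2.16 in 6M-12W but -1.15 (adjusted p = 0.233) in 6M-8W. Timp1 had -2.35 in 2M-12W and -2.02 in 6M-12W, and -0.72 (adjusted p = 0.368) in 6M-8W. Kit was higher in 2M-12W (1.62) and 6M-12W (1.200), with a fold of 0.43 that did not pass in 6M-8W. Tef and Hlf were higher in 2M-12W and 6M-8W as well.

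The stress effect of this set was also tested directly against those of others. Against 2M-12W, 89 genes (0.501%) differed, 78 with a higher and 11 with a lower fold in 2M-8W. Among genes whose log2 CPM averaged 1 or more over both sets, the 5 largest differences were in Hydin (7.95 on the log2 scale), Ccdc78, Erich3, Ttc21a and Dnah5, all highest in CUMS ovary 1. Within 2M-12W the same genes were highest in Ctrl ovary 3. Hydin had 13.9 CPM there, against 0.944 to 2.34 CPM in the other 2M-12W controls. The differences thus draw on both sets. Without CUMS ovaries 1 and 3, 0 genes differed in edgeR. The differences in the lower direction were smaller. Aox1, an aldehyde oxidase, fell in 2M-8W, with 53.3, 46.7, 47.9 and 49.9 CPM in CUMS ovaries and 75.6, 60.9, 84.5 and 85.1 CPM in Ctrl ovaries (fold -0.63 ± 0.13, adjusted p = 0.0162), and its fold in 2M-12W was 0.28, a difference of -0.91 (adjusted p = 0.0456). Scpep1, a serine carboxypeptidase, differed by -0.52 (adjusted p = 0.0456). Against 6M-8W, 0 genes (0.0%) passed in edgeR, with 2752 at an unadjusted p under 0.05 and 541 in DESeq2.

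The number of calls depended on which libraries entered. Without CUMS ovary 1 it was 114 and without CUMS ovary 3 it was 397, while without CUMS ovary 2 it was 1673 and without CUMS ovary 4 it was 1537. Among controls the calls fell to 45 without Ctrl ovary 2 and to 36 without Ctrl ovary 4, the libraries low in granulosa transcripts, and were 1333 without Ctrl ovary 1 and 1120 without Ctrl ovary 3. Of the 84 named genes past the threshold, 11 were called in the same direction without CUMS ovary 1, 46 without CUMS ovary 3, 10 without Ctrl ovary 2 and 6 without Ctrl ovary 4. In a fit of these 8 libraries alone 2 genes passed, Mgst2 and Atp12a, both lower in CUMS ovaries. Mgst2, a glutathione transferase of the microsomal membrane, had 14.7, 14.0, 16.6 and 16.8 CPM in CUMS ovaries 1 to 4, against 49.7, 53.3, 35.5 and 70.1 CPM in Ctrl ovaries 1 to 4. The CUMS ovaries were within a few CPM of each other and all controls were at least 2 times higher. In the fit of all ovaries the fold of Mgst2 was -1.75 (adjusted p = 0.00404).

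Of the 1113 genes, 26 passed in the same direction in at least 12 of the 15 alternatives, 21 lower and 5 higher. No gene passed in all 15, since there were 0 calls with the cilia covariate and 0 without CUMS ovaries 1 and 3. Most of the other alternatives leave out 1 library. Beside genes already named, the lower ones included Adh7, an alcohol dehydrogenase that also oxidizes retinol (-2.13), Apold1, a regulator of endothelial cells (-1.79), Ggt5, which cleaves leukotriene C4 (-0.83), Foxc2, a transcription factor of lymphatic vessels (-1.14), Kcnd2, a potassium channel (-1.19), Nadk, which makes NADP (-0.73), Radil (-1.84) and Rhbdf2 (-0.50). Adh7 had 3.25, 2.93, 2.24 and 3.48 CPM in CUMS ovaries and 7.99, 15.2, 12.6 and 16.6 CPM in Ctrl ovaries, with no overlap. Ggt5 had the smallest p of all genes tested, with 27.3, 38.2, 28.7 and 33.7 CPM in CUMS ovaries and 45.6, 58.9, 60.4 and 62.6 CPM in Ctrl ovaries (adjusted p = 0.00399). The higher ones were Il17rd, an inhibitor of growth factor signalling (0.83), Zranb3, a DNA translocase of stalled replication forks (0.71), 2700049A03Rik (0.43), and Kif27 and Mok, both tied to cilia (1.49 and 1.12). Without CUMS ovaries 1 and 3 their folds were 0.53, 0.51, 0.40, 0.80 and 0.59 in that order. All 26 genes were singled out after their values were seen. 7330423F06Rik, also among the 21, lies inside Abcb1b on the same strand, so that the reads of the pair cannot be told apart. 7330423F06Rik, Olfr877, Trim80 and Foxc2 rest on low counts. Foxc2 had 1.33, 0.959, 0.721 and 0.773 CPM in CUMS ovaries and 2.04, 1.93, 2.60 and 1.85 CPM in Ctrl ovaries.

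**Figure D5:**
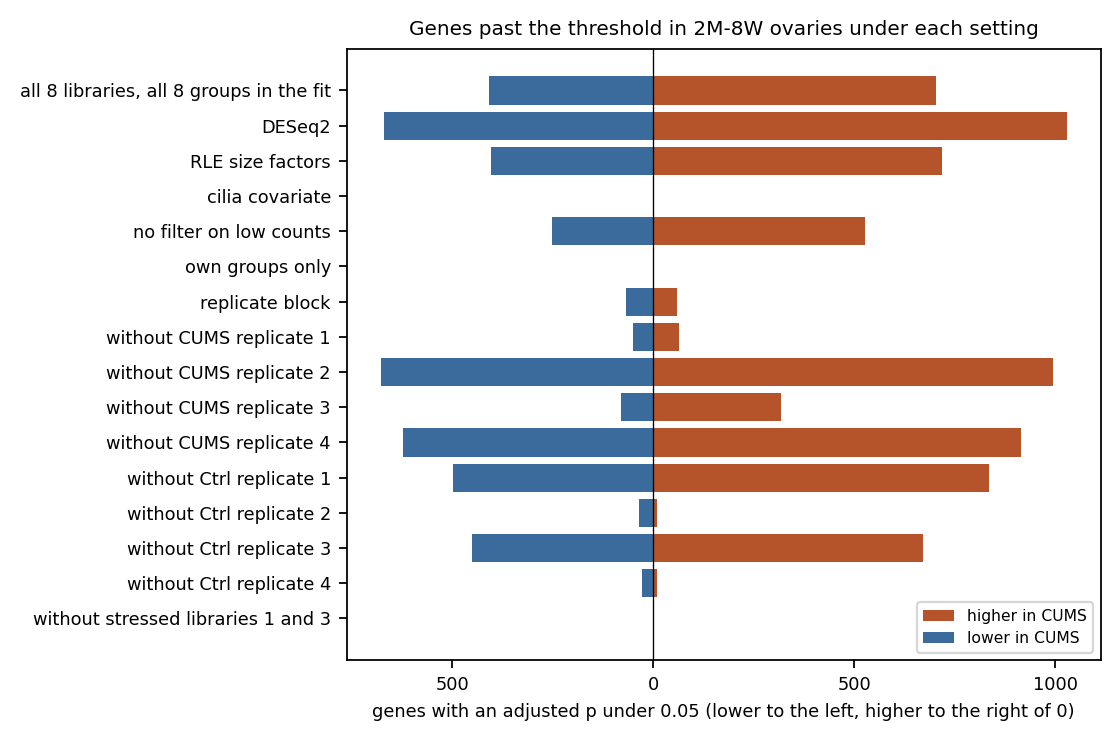
Number of genes with an adjusted p under 0.05 (edgeR unless DESeq2 is named), lower in CUMS to the left of 0 and higher to the right, with all 8 libraries and under each of 15 alternatives. The counts run from 0 without CUMS ovaries 1 and 3, and with cilia level as a covariate, to 1699 with DESeq2.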

How the data were processed

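Bulk RNA sequencing libraries were made from whole ovaries with a NEBNext Ultra II kit after chloroform extraction, per the labels' protocols. The authors deposited raw read counts per gene, per the file headers, beside FPKM values, which served only as a check. Of 507823 values with a count of at least 10, 100% agreed within 1% with count over library total times 1 constant per gene. That constant was taken from the FPKM values themselves, not from known gene lengths. Gene positions match GRCm38; the sources used here do not give the aligner, the counter or the use of strand, so overlapping and antisense genes cannot be told apart.

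All 31 ovary libraries in 8 groups were fitted in edgeR 4.0.16 (R 4.3.3, limma 3.58.1) with its default filter on low counts, TMM scaling and the quasi-likelihood F test; 17766 of 34745 genes were tested, p-values were Benjamini-Hochberg adjusted over them, and calls are adjusted p under 0.05. The standard error is the size of the fold over the square root of F. DESeq2 1.42.0 was an alternative. The fit was tested on simulated data. No 2 libraries of a group agreed within counting noise. Whether replicate numbers pair the samples is not known, and the main fit did not pair them. The libraries, gene lists and tests were chosen with earlier results of these data known. Genes were named by rule: 21 core genes; of genes past the threshold with mean log2 CPM at 1 or more, the 10 with the highest and the 10 with the lowest fold; the same among genes with separate groups; the 3 smallest p-values in each list; and the 5 highest and 5 lowest in each difference between sets, with predicted genes left out of all but the core genes and lists. Pituitary libraries were not analysed here, and a few genes met by these rules are not reported here. Promoter windows are from RefSeq.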

Additional observations from a re-analysis of the deposited data

Results flagged for a closer look

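Libraries that stood apart from the other 3 of their group were found with Dixon's ratio, the gap of the extreme library to its neighbour over the range of the group. The ratio was set against its tabulated critical value. Of 276 groups examined 15 passed, and chance passes about 5% of them. In Ctrl ovaries, library 3 stood apart for Cfap52 (ratio 1.0) and Spag17 (1.0), for which the other 3 controls were at 0, and for Sec14l3 (0.912), Npas2 (0.835), Col4a2 (0.864) and Cdkn1a (0.857). Ctrl library 4 stood apart for Hlf (0.959), Cldn3 (0.897) and Krt18 (0.838). In CUMS ovaries, library 3 stood apart for Mki67 (0.912) and Ptch1 (0.847), in both cases as the highest. CUMS library 1 stood apart for Xpnpep2 (0.834) and for the summed levels of the clock repressors and outputs (0.893), heat shock proteins (0.859) and B cell markers (0.835).

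The stress effect differed from that of the 2M-12W set, in the edgeR test of the difference, for 19 of the named genes reported here. Those with a higher fold in 2M-8W were mostly cilia genes, with log2 differences of 8.29 for Cfap52, 7.95 for Hydin, 7.88 for Ccdc78, 7.65 for Sntn, 7.65 for Erich3, 7.48 for Ttc21a, 7.44 for Dnah5, 7.09 for Sec14l3, 6.85 for Atp13a5, 5.48 for Cyp2f2, 4.92 for Lrriq1, 4.89 for Ccdc40, 4.64 for Bbox1, 3.15 for Iqcg and 2.72 for Cldn3. Those with a lower fold were Aox1 (-0.91), Armcx6 (-0.83), Chkb (-0.68) and Scpep1 (-0.52). None of these differences passed without CUMS ovaries 1 and 3, and their cause was not tested.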

How the results depend on the processing

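The 1113 calls (703 higher, 410 lower) were 1699 with DESeq2 (1028 and 671), 125 with the replicate number as a block (58 and 67), 2 with the 8 libraries alone (0 and 2) and 777 without the filter on low counts (526 and 251). With the summed cilia level as a covariate, and without CUMS ovaries 1 and 3, they were 0 in edgeR (2046 and 1798 at an unadjusted p under 0.05). Leaving out 1 replicate gave 36 to 1673 calls, 9 to 995 higher and 27 to 678 lower. The 89 differences from 2M-12W were 401 with DESeq2, 45 without the filter and 0 with the block, the covariate, the 8 libraries and 2M-12W alone, and without CUMS ovaries 1 and 3; leaving out 1 replicate gave 0 to 478. The 0 differences from 6M-8W were 541 with DESeq2, 1 with the covariate, 1 with own groups only, and 0 to 372 with 1 replicate left out. Same-numbered libraries deviated with correlations of -0.03, 0.09, 0.21 and 0.18. Of the libraries, 2 of 4 CUMS and 3 of 4 Ctrl correlated best with their own number. The labels name no pairing, so whether the numbers pair the samples is not settled, and the main fit did not pair them. Folds changed sign with the covariate for Inhba (-0.10), Fst (-0.063), Esr1 (-0.10), Cdhr3 (-0.49), Alox12e (-0.62) and Armcx6 (0.015), and without CUMS ovaries 1 and 3 for Esr1 (-0.10), Nr3c1 (-0.026), Cdhr3 (-0.98), Alox12e (-0.56), Ttc21a (-0.075) and Armcx6 (0.068). With 1 replicate left out the folds ran from -0.13 to 0.033 for Armcx6, -0.0084 to 0.29 for Amh, -0.053 to 0.26 for Nr3c1, -0.18 to 2.00 for Akr1c18, -0.020 to 0.88 for Inhba and -0.81 to 0.27 for Cyp19a1. Of these, Cdhr3, Alox12e and Ttc21a had passed the threshold. The cilia level was highest in CUMS libraries 1 and 3, so the covariate and leaving those libraries out are not independent alternatives. Genes below about 1 CPM rest on few counts.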

Other observations

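Oxidative phosphorylation genes had 24 of 24 folds below 0, with a median of -0.12, but 0 passed in edgeR. An unadjusted p under 0.05 was found for 2 of them, against 23.6% of all genes. Without CUMS ovaries 1 and 3 the median was 0.02. C1ra, a protease of the complement cascade, was the 1 gene of 21 in the complement and acute inflammation list that fell, near the 2.31% of all genes (-0.33 ± 0.10, adjusted p = 0.0409 in edgeR), with 80.0, 79.7, 76.5 and 78.8 CPM in CUMS ovaries and 78.1, 109, 93.3 and 116 CPM in Ctrl ovaries. The CUMS ovaries hardly varied, and Ctrl ovary 1 lay among them.

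Prl, the prolactin transcript of the pituitary, had 32.7, 43.3, 51.2 and 19.2 CPM in CUMS ovaries and 0.107, 0.627, 0 and 25.4 CPM in Ctrl ovaries, and growth hormone transcripts were distributed in the same way. Neither passed (adjusted p in edgeR 0.113 for Prl), and 0 of 5 pituitary hormone genes tested did. The lists of smooth muscle, skeletal muscle, adipocyte, B cell, erythroid and lymphatic endothelial markers had 0 genes past the threshold in edgeR, with 2, 0, 4, 0, 0 and 2 genes at an unadjusted p under 0.05. Over all genes tested, 23.6% had such an unadjusted p.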
